A study of Homo sapiens with 16 samples.

Results

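Cadherins and claudins were taken as every gene of the value table whose single symbol was CDH or CLDN followed by a number. Of 18417 genes on transcript clusters (the array's unit of 1 measured transcript group) with 1 symbol, 44 were such genes, 21 cadherins and 23 claudins, each on 1 cluster. Not all are classical cadherins, since CDH16, CDH17, CDH23 and CDH26 belong to other branches of the family. RNA came from A375, a human amelanotic melanoma line, and was read on the Human Gene 1.0 ST array of Affymetrix. The groups were G10 and A7, which are A375 cells carrying human catalase cDNA in the pcDNA3 vector and are each 1 clone obtained by clonal dilution, PCDNA3, which are A375 cells carrying the vector without insert, and A375, the untransfected line. Stable transfectants were selected with geneticin at 1500 µg/ml and kept at 700 µg/ml, so the A375 group differs from the other 3 in drug as well as in vector. Each group had 4 arrays, stated to be biological replicates, and control means the average of PCDNA3 and A375. The catalase construct is represented by these 2 clones and the empty vector by 1 group, so a change seen in a single clone cannot be told apart from a difference between clones.

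Classical cadherins are calcium-dependent adhesion proteins that span the membrane, bind the same kind of cadherin on the next cell and hold the actin skeleton through catenins at adherens junctions. Type I cadherins include E-cadherin and N-cadherin, and type II cadherins are mostly known from the nervous system and the neural crest. Claudins cross the membrane several times and form the strands of tight junctions, some sealing the space between cells and others forming ion channels through it. Normal melanocytes are held to keratinocytes by E-cadherin, and melanoma cells often lose it and carry N-cadherin instead, a change called the cadherin switch.

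Values are log2 intensities, on which 1 unit is a doubling. Array medians lay between 5.85 and 5.97. The 95th percentile of 360 clusters of olfactory receptors, genes of the nose, was 5.18 and served as the unexpressed level, and 62.6% of the 33297 clusters exceeded it in the mean of at least 1 group. Arrays of a group correlated at 0.984 to 0.995. The G10 arrays formed 2 pairs, replicates 1 and 2 (r = 0.994) and replicates 3 and 4 (r = 0.992), with r from 0.984 to 0.987 across them, so G10 results that depend on a pair are also given without it. CAT, which encodes catalase, averaged 8.27 in G10, 9.02 in A7, 8.56 in PCDNA3 and 8.73 in A375. It did not pass the test in G10 vs control (-0.38, adjusted p = 0.0526) or in A7 vs control (0.37, adjusted p = 0.124), and was lower in G10 vs A7 on every array (-0.75, adjusted p = 0.00221). Whether its cluster reads the transfected cDNA is not given, so CAT does not check the labels. Of 9 melanocytic markers, 7 lay above the unexpressed level in G10, 9 in A7, 7 in PCDNA3 and 6 in A375. SOX10, MITF and S100B lay above it in every group, and GPR143 and SLC45A2 in A7 alone. Of 7 epithelial markers, EPCAM, KRT5 and ELF3 lay below it and the keratins KRT8, KRT14, KRT18 and KRT19 above it in every group. Of 7 fibroblast markers, 5 lay above it in G10 and 6 in each of A7, PCDNA3 and A375. Of 7 endothelial markers, 2 did in every group. In bulk RNA, less RNA per cell and fewer cells with that RNA cannot be told apart.

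Most members were not expressed above that level. In all 4 group means, 14 of the 44 members exceeded it, 5 cadherins and 9 claudins, and 6 more did so in some groups. The other 24 members, 14 cadherins and 10 claudins, stayed below it everywhere. At 45.5%, the share of members above the level in some group was below the 62.6% of all clusters. The cadherins above it in all groups were CDH2, CDH15, CDH19, CDH22 and CDH24. The claudins were CLDN3, CLDN4, CLDN5, CLDN9, CLDN11, CLDN12, CLDN15, CLDN19 and CLDN23. CDH4, CDH13 and CLDN25 have no value here.

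**Figure D1:**
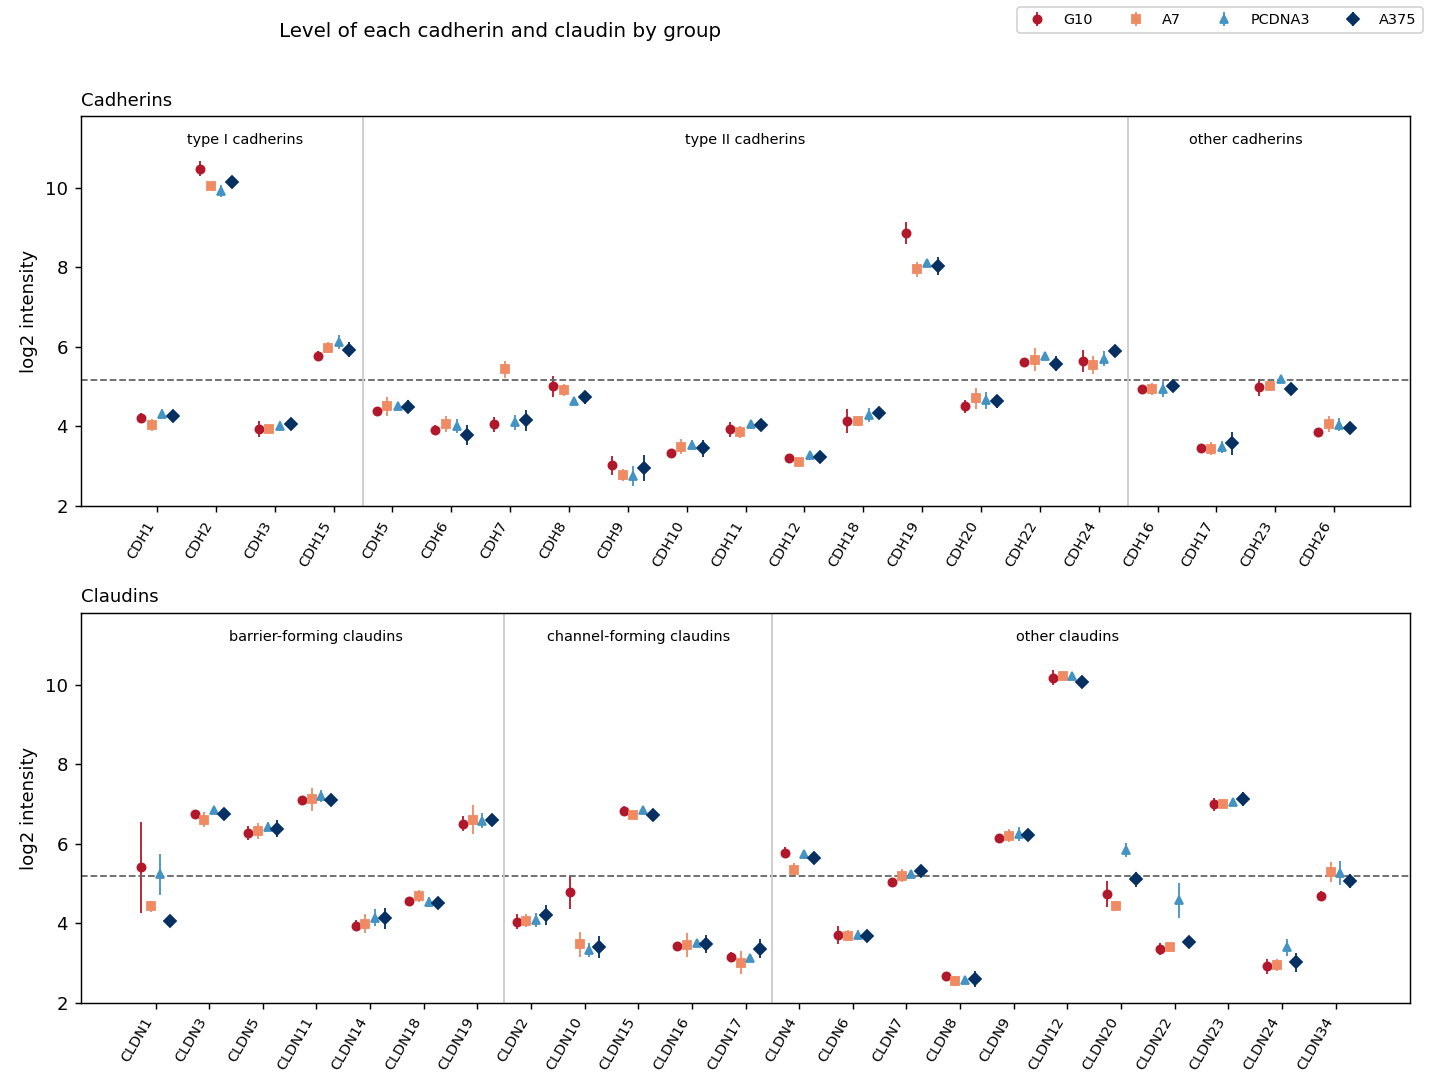
Mean log2 intensity of each member by group (y axis; markers for G10, A7, PCDNA3 and A375, bars 1 SD, n = 4), with cadherins in the upper panel and claudins in the lower one, ordered by class. The dashed line is the unexpressed level of 5.18; CDH2 and CLDN12 lie near 10, while 24 of the 44 members lie below the line in every group.

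Few members differed between the clones and control, and CLDN20 and CLDN22 were called in both clones. In G10, CDH2, CDH8, CDH19 and CLDN10 were upregulated and CLDN7, CLDN20, CLDN22 and CLDN34 were downregulated (limma, Benjamini-Hochberg adjusted p under 0.05), 4 members each way. Of all clusters, 9.92% were higher and 7.90% lower in that comparison, so the members' shares (9.09% each way) were close to the background. In A7, CDH7 was upregulated, and CLDN4, CLDN20 and CLDN22 were downregulated, against 3.46% of all clusters higher and 2.23% lower. The A7 shares of members were 2.27% higher and 6.82% lower. Both clones were set against 1 set of control arrays, so their changes are not independent of each other. In G10 vs A7, CDH2, CDH19, CLDN4 and CLDN10 were higher and CDH7 and CLDN34 lower, with 7.83% and 7.38% of all clusters higher and lower. PCDNA3 vs A375 called CLDN22 alone, which was higher, where 0.045% of all clusters were higher and 0.0781% lower. At an unadjusted p under 0.05, 4 of the 44 members passed in that comparison, beside 4198 of all 33297 clusters. At the same limit, 11 members passed in G10 vs control, beside 9380 clusters. It was 7 in A7 vs control, beside 5679, and 7 in G10 vs A7, beside 8532.

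Counted over clusters above the unexpressed level in some group, 5 of 20 members (25.0%) were called in G10 vs control, against 26.3% of all such clusters. For A7 vs control it was 3 of 20 (15%), against 7.99%, and for G10 vs A7 5 of 20 (25.0%), against 22.4%. The median change over the 44 members was -0.08 in G10 and -0.05 in A7, beside -0.04 and -0.02 over all clusters.

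**Figure D2:**
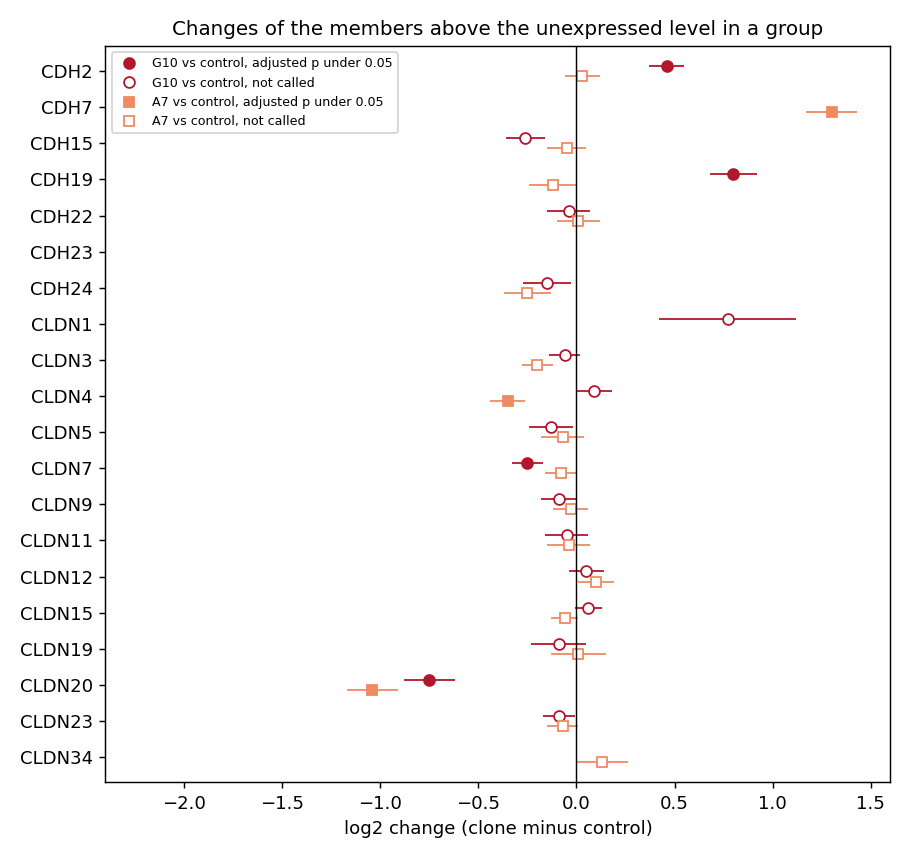
Log2 change from control (x axis, clone minus control; bars 1 SE) of the 20 members above the unexpressed level in some group, G10 as circles and A7 as squares, filled where the adjusted p was under 0.05. Changes with both means below 5.18 are left out, as for CDH23; where only the clone or only the control lies below it (CDH7, CLDN1, CLDN7, CLDN20, CLDN34) the measured difference is drawn. CDH7 stands out in A7 and CDH19 and CDH2 in G10, while CLDN20 was lower in both.

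Of the type I cadherins, only CDH2 was called. CDH2 encodes N-cadherin, the cadherin of nerve, muscle and many melanomas. Its log2 intensities were 10.57, 10.59, 10.59 and 10.19 in G10, 10.05, 10.19, 9.98 and 10.03 in A7, 10.07, 10.01, 9.88 and 9.71 in PCDNA3, and 10.02, 10.09, 10.21 and 10.23 in A375. Replicates 1 to 3 of G10 lay above every other array, whereas replicate 4 lay among the A375 arrays. CDH2 was higher by 0.46 ± 0.09 (SE) in G10 vs control (adjusted p = 0.0021) and by 0.42 ± 0.11 in G10 vs A7 (adjusted p = 0.011). Without G10 replicates 1 and 2 neither call held, with 0.36 from control (adjusted p = 0.055) and 0.33 from A7 (adjusted p = 0.11). In A7 the difference from control was 0.03 ± 0.09 (adjusted p = 0.915).

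CDH1, which encodes E-cadherin, stayed below the unexpressed level on every array. Its values were 4.35, 4.26, 4.23 and 4.06 in G10, 3.92, 3.89, 4.05 and 4.25 in A7, 4.29, 4.23, 4.47 and 4.28 in PCDNA3, and 4.39, 4.26, 4.18 and 4.19 in A375. The 4 groups overlapped, and the adjusted p was 0.711 in G10 vs control and 0.0935 in A7 vs control. CDH3, which encodes P-cadherin of basal keratinocytes, was also below that level, with means of 3.94 in G10, 3.93 in A7, 4.0 in PCDNA3 and 4.06 in A375 and single arrays from 3.78 to 4.23 in all. Between groups these values overlapped, and no comparison was called. CDH15, the M-cadherin of skeletal muscle, averaged 5.77 ± 0.13 in G10, 5.98 ± 0.14 in A7, 6.12 ± 0.18 in PCDNA3 and 5.93 ± 0.18 in A375 (SD, n = 4), and its difference of -0.26 in G10 vs control was not called (adjusted p = 0.0855).

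Of the type II cadherins, CDH7 was called in A7 vs control, where no other cadherin was called. CDH19 was called in G10 vs control, with the largest measured change of the 3 cadherins called there. CDH7, known from migrating neural crest cells of the chick, measured 4.19, 4.10, 3.76 and 4.14 in G10, 5.47, 5.65, 5.47 and 5.11 in A7, 4.19, 3.93, 4.32 and 3.97 in PCDNA3, and 3.87, 4.01, 4.48 and 4.23 in A375. Every A7 array lay above every other array, and of the group means only that of A7 exceeded the unexpressed level. Since control lay below it, CDH7 was higher in A7 by at least 0.25, with a measured difference of 1.30 ± 0.13 (adjusted p = 1e-05). In G10 vs A7 it was lower by at least 0.25, with a measured difference of -1.38 ± 0.15 (adjusted p = 9.3e-06). These calls held under all alternatives, with adjusted p up to 0.000376. Of the 9 melanocytic markers measured, 5 (MLANA, TYR, TYRP1, GPR143, SLC45A2) were also higher in A7 vs control, and their list's summed log2 level ranged from 69.71 to 73.28 in G10, 74.12 to 76.87 in A7, 64.56 to 71.54 in PCDNA3 and 64.62 to 67.38 in A375. Their part in the result was not tested.

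CDH19, a cadherin of neural crest derivatives such as Schwann cell precursors, was well above the unexpressed level in all groups. It measured 9.16, 9.03, 8.58 and 8.69 in G10, 8.23, 7.86, 7.86 and 7.83 in A7, 8.11, 8.20, 8.06 and 8.02 in PCDNA3, and 8.0, 8.31, 7.77 and 8.10 in A375. All G10 arrays exceeded all others, replicates 1 and 2 by more than replicates 3 and 4. CDH19 was higher by 0.80 ± 0.12 in G10 vs control (1.74-fold, adjusted p = 0.000219) and by 0.92 ± 0.14 in G10 vs A7 (1.89-fold, adjusted p = 0.000251). With either pair of G10 arrays left out, the change from control was 0.57 (without replicates 1 and 2) and 1.03 (without replicates 3 and 4), called in each case. In A7 vs control the difference was -0.12 ± 0.12 (adjusted p = 0.692). Of the 9 melanocytic markers, 2 (PMEL, TYRP1) were higher and 1 (GPR143) lower in G10 vs control. The GPR143 call was lost without G10 replicates 3 and 4 (adjusted p = 0.161). TYRP1 also differed between the control lines, with means of 6.50 in PCDNA3 and 5.22 in A375. PMEL ranged from 6.98 to 9.35 within PCDNA3 and from 9.16 to 11.34 within G10. The part of these markers in the result was not tested.

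**Figure D3:**
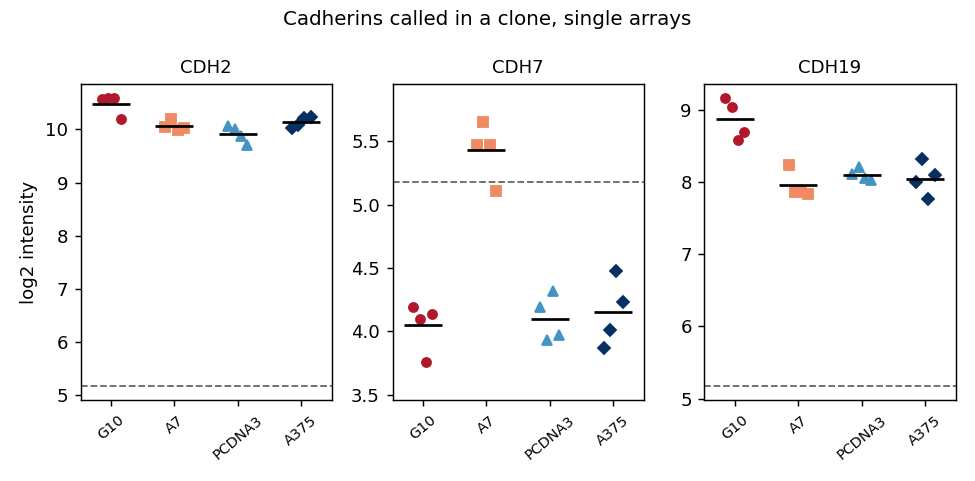
Log2 intensity (y axis) of CDH2, CDH7 and CDH19 on each array, by group, with 1 point per array, bars at the group mean and the unexpressed level of 5.18 dashed; the y axes differ between panels and do not start at 0. The lowest A7 array of CDH7 (5.11) and the lowest G10 array of CDH19 (8.58) lie above every array of the other groups.

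CDH7 and CDH19 neighbour each other on chromosome 18, with a pseudogene and a long non-coding RNA between them as the only annotated genes, and each was called in 1 clone. The 250 bases before their starts in RefSeq (GRCh38.p14) are shown because the pair lie side by side and moved in different clones. CDH7 has 2 annotated starts, of which the upstream one is shown (chr18:65750002-65750251, plus strand), and CDH19 has 1 (chr18:66604091-66604340, minus strand). Capitals mark matches to a short run of letters that SOX and TCF/LEF factors can bind.
CDH7: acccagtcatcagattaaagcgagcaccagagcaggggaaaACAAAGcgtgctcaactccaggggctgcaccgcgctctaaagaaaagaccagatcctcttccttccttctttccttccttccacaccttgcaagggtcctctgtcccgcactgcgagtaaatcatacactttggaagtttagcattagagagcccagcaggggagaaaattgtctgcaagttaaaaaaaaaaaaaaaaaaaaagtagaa
CDH19: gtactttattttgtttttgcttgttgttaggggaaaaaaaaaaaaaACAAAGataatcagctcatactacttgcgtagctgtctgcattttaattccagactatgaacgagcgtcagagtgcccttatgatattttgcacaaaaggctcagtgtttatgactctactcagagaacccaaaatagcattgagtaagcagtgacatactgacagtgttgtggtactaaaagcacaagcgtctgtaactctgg
The motif was ACAAAG or its reverse complement CTTTGT, searched on both strands. It begins 209 bases before the upstream start of CDH7, is not in the window of its second start, and begins 204 bases before the start of CDH19. In all, 13.7% of the 35116 windows of that length before RefSeq starts held it. CAGGTG or CACCTG, the E-box of the SNAI and ZEB repressors, is in 17.5% of all windows, and CATGTG or CACATG, the core of the box that MITF binds, in 9.42%. Neither is in a window of CDH7 or CDH19, and none of the 3 motifs is before the starts of CDH2 or CLDN10. Of the 44 members, 29 had 47 windows in all, of which 9 (19.1%) held ACAAAG, 4 (8.51%) the E-box and 3 (6.38%) the MITF core.

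The other type II cadherins stayed near or below the unexpressed level. CDH8, a cadherin of the brain that is named here after its values were seen, was called higher in G10 vs control (means 5.01 and 4.68, adjusted p = 0.0447) with both means below the level, and the call was lost without G10 replicates 1 and 2 (adjusted p = 0.519) and in 19 of 29 alternatives. CDH22 and CDH24 lay between 5.54 and 5.89 in all group means without a call. CDH5, the cadherin of endothelium, averaged 4.38 to 4.52. The remaining members of the class, CDH6, CDH9, CDH10, CDH11, CDH12, CDH18 and CDH20, had means from 2.76 to 4.70. Of the non-classical cadherins, CDH16 of kidney, CDH17 of liver and intestine, CDH23 of the hair cells of the ear and CDH26 were never called. In each comparison 0 of them passed an unadjusted p under 0.05, beside the counts over all clusters given above. Of them only CDH23 reached the level, at 5.18 in PCDNA3.

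Among the 7 barrier-forming claudins no call was made, though CLDN1 varied more than any other member. In each comparison 1 of the 7 passed an unadjusted p under 0.05, beside the counts over all clusters given above. CLDN1, the claudin of the skin barrier, measured 4.23, 4.61, 6.45 and 6.34 in G10, 4.36, 4.52, 4.28 and 4.56 in A7, 5.66, 4.77, 4.81 and 5.67 in PCDNA3, and 4.01, 3.90, 4.23 and 4.06 in A375. G10 replicates 3 and 4 were the highest arrays of all, and replicates 1 and 2 lay close to the A7 arrays and below all PCDNA3 arrays. Its range of 2.22 within G10 compares with a median range of 0.35 over the members in that group. The means of control and A7 lay below the unexpressed level. The difference was at least 0.11 in G10 vs control (measured 0.77 ± 0.35, adjusted p = 0.156). In G10 vs A7 it was at least 0.23 (measured 0.98 ± 0.40, adjusted p = 0.126). Without G10 replicates 1 and 2, G10 was called higher than control, which lay below the level (measured 1.76, adjusted p = 9.03e-05). Without replicates 3 and 4 both means lay below the level and no call was made (adjusted p = 0.595). All PCDNA3 arrays lay above all A375 arrays, whose mean was below the level. This difference, at least 0.05 and measured as 1.18 ± 0.40, was not called (adjusted p = 0.235). It was called with only the arrays compared (adjusted p = 0.0432) and without either pair of G10 arrays (adjusted p = 0.00721 without replicates 1 and 2, 0.00727 without replicates 3 and 4). With A375 cells alone as control, which lay below the level, G10 was called higher (measured 1.36, adjusted p = 0.0319).

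CLDN11, the claudin of myelin and of Sertoli cell junctions, was expressed at like levels in the groups, with 7.18, 7.11, 7.08 and 7.03 in G10, 6.95, 6.80, 7.41 and 7.30 in A7, 7.37, 7.30, 7.11 and 7.03 in PCDNA3, and 7.07, 7.10, 7.24 and 6.98 in A375. The arrays of all groups overlapped, and the differences from control were -0.05 ± 0.11 in G10 and -0.04 ± 0.11 in A7. CLDN3, CLDN5, the claudin of endothelium, and CLDN19 had means from 6.27 to 6.86, and CLDN14 and CLDN18 from 3.94 to 4.68, none of them called.

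Of the channel-forming claudins, CLDN10 was called in G10. CLDN10, which forms ion channels in kidney and glands, measured 5.01, 4.23, 4.69 and 5.17 in G10, 3.74, 3.71, 3.29 and 3.12 in A7, 3.46, 3.08, 3.36 and 3.41 in PCDNA3, and 3.45, 3.04, 3.73 and 3.39 in A375. Every G10 array exceeded every other array, yet none exceeded the unexpressed level, so no size is given. The adjusted p was 3.1e-05 in G10 vs control and 0.000255 in G10 vs A7, and both calls held in every alternative that gave a value. DZIP1, which overlaps CLDN10 in the annotation, was also higher in G10 vs control (9.03 and 8.59, adjusted p = 0.0102), and its part in the result was not tested. CLDN15, an intestinal cation channel, lay at 6.72 to 6.84 in all groups, while CLDN2, CLDN16 and CLDN17 had means from 3.0 to 4.21, without a call.

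CLDN20 was the member lower in both clones with a control mean above the unexpressed level. It measured 4.66, 4.30, 4.99 and 4.98 in G10, 4.44, 4.52, 4.28 and 4.51 in A7, 6.04, 5.71, 5.70 and 5.96 in PCDNA3, and 5.32, 5.23, 4.99 and 4.91 in A375. The A7 arrays lay below all control arrays, the G10 arrays lay below all PCDNA3 arrays but overlapped A375, and PCDNA3 lay above A375 throughout. CLDN20 was lower by at least 0.30 in A7 (measured -1.04 ± 0.13, adjusted p = 1e-04) and by at least 0.30 in G10 (measured -0.75 ± 0.13, adjusted p = 0.000541). The difference of PCDNA3 from A375, measured as 0.74 ± 0.15, was not called (adjusted p = 0.061), but it was in 8 of 28 alternatives, among them only the arrays compared (adjusted p = 0.0348) and array weights (adjusted p = 0.0167). With A375 cells alone as control, A7 was called lower (adjusted p = 0.0143) and the G10 call was lost (adjusted p = 0.104). The means of A375, A7 and G10 all lay below the level, so no size is given. TFB1M, which overlaps CLDN20 in the annotation, was also lower in G10 vs control (-0.34, adjusted p = 0.0144) but not in A7 (-0.14, adjusted p = 0.482), and was lower in PCDNA3 vs A375 (-0.61, adjusted p = 0.0322), the direction opposite to that of CLDN20. The 250 bases before the start of CLDN20 (chr6:155263763-155264012, plus strand) are shown because it was lower in both clones, with the MITF core in capitals at 245 bases before the start.
CLDN20: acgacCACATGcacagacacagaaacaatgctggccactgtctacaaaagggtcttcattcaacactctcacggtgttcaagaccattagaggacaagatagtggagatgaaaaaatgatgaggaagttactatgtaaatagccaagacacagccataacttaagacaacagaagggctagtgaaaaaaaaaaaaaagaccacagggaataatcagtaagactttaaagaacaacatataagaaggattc

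CLDN22 was called in 3 comparisons with every group mean below the unexpressed level, and is named here after its values were seen. It measured 3.40, 3.14, 3.34 and 3.50 in G10, 3.39, 3.40, 3.39 and 3.44 in A7, 5.13, 4.42, 4.09 and 4.68 in PCDNA3, and 3.67, 3.46, 3.41 and 3.57 in A375. The PCDNA3 arrays stood above all others, and the clones lay beside A375. The adjusted p was 0.0017 in G10 vs control, 0.0103 in A7 vs control and 0.0189 in PCDNA3 vs A375. With A375 cells alone as control, neither G10 (adjusted p = 0.546) nor A7 (adjusted p = 0.792) was called. The PCDNA3 call was lost without PCDNA3 replicate 4 (adjusted p = 0.0771) and without A375 replicate 2 (adjusted p = 0.071). WWC2, which overlaps CLDN22 in the annotation, was not called in any comparison.

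CLDN34 measured 4.59, 4.85, 4.66 and 4.64 in G10, 5.46, 5.52, 5.05 and 5.12 in A7, 5.40, 5.55, 4.84 and 5.26 in PCDNA3, and 5.09, 5.02, 4.85 and 5.28 in A375. All G10 arrays lay below all A7 arrays and met the lowest control arrays. It was lower in G10 vs A7 by at least 0.11 (measured -0.60 ± 0.15, adjusted p = 0.0103) and was called lower in G10 vs control with both means below the level (4.69 and 5.16, adjusted p = 0.0161). The call from control was lost with A375 cells alone as control (adjusted p = 0.114), without G10 replicate 1 (adjusted p = 0.0535) and without either pair of G10 arrays (adjusted p = 0.0649 without replicates 1 and 2, 0.0978 without replicates 3 and 4). Without replicates 3 and 4 the call in G10 vs A7 was lost too (adjusted p = 0.0549).

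**Figure D4:**
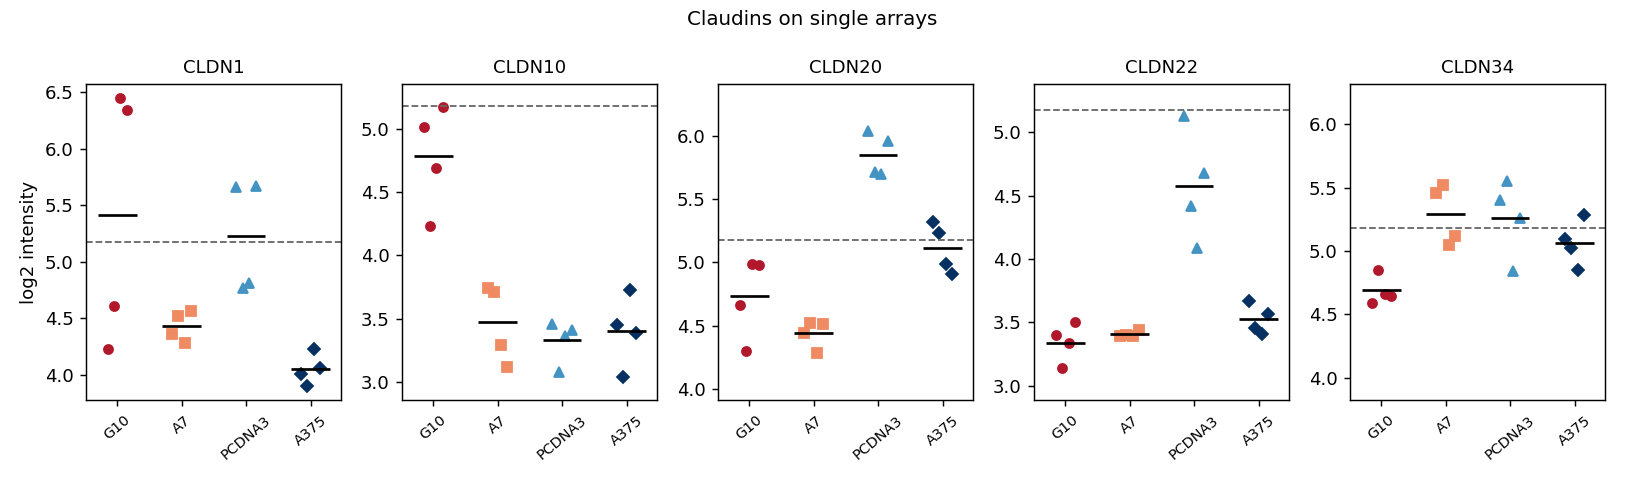
Log2 intensity (y axis) of CLDN1, CLDN10, CLDN20, CLDN22 and CLDN34 on each array, by group, with 1 point per array, bars at the group mean and the unexpressed level of 5.18 dashed; the y axes differ between panels and do not start at 0. CLDN1 splits within G10 into arrays at 4.23 and 4.61 and arrays at 6.45 and 6.34, and CLDN20 and CLDN22 are highest in PCDNA3.

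CLDN4 and CLDN7, claudins of many epithelia, had small differences and are named after their values were seen. CLDN4 averaged 5.78 ± 0.15 in G10, 5.35 ± 0.17 in A7, 5.73 ± 0.12 in PCDNA3 and 5.65 ± 0.12 in A375 (SD, n = 4), with all A7 arrays below all other arrays. It was lower by 0.35 in A7 vs control (adjusted p = 0.0359), a call lost in 12 of 30 alternatives, and higher by 0.44 ± 0.11 in G10 vs A7 (adjusted p = 0.0095). CLDN7 averaged 5.03 in G10, below the level, against 5.28 in control, and was lower by at least 0.10 (measured -0.25 ± 0.08, adjusted p = 0.0321), a call lost in 16 of 30 alternatives. Its annotated neighbour ELP5, which overlaps it, was higher in G10 vs control (0.49, adjusted p = 0.000158). CLDN12, with means from 10.06 to 10.23, CLDN9 (6.14 to 6.25) and CLDN23 (6.99 to 7.13) lay above the level in every group without a call, and CLDN6, CLDN8 and CLDN24 had means from 2.55 to 3.71.

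Among the partners of cadherins at adherens junctions, of 15 genes measured (catenins, nectins and linkers), 3 were higher and 1 lower in G10 vs control, and 2 were higher in A7 vs control. The shares were 20% higher and 6.67% lower in G10, beside 9.92% and 7.90% of all clusters, and 13.3% higher in A7, beside 3.46%. Of those above the unexpressed level in some group, 30.8% were called in G10, beside 26.3% of all such clusters. In A7 it was 15.4%, beside 7.99%. NECTIN2, 1 of the higher genes, lost its G10 call without replicates 1 and 2 (adjusted p = 0.166). CTNNA1, which encodes alpha-catenin, was higher in G10 (0.33 ± 0.06, adjusted p = 0.000686), a call that held without either pair of G10 arrays. AFDN, the actin linker of nectins, was higher by 0.57 ± 0.10 in G10 (adjusted p = 0.000616), and NECTIN1 was lower (-0.39 ± 0.09, adjusted p = 0.00815), a call lost without G10 replicates 1 and 2 (adjusted p = 0.182). CTNNB1, which encodes beta-catenin, averaged 11.50 in G10, 12.18 in A7 and 11.75 in control. It was higher in A7 vs control (0.43 ± 0.09, adjusted p = 0.00797) and lower in G10 vs A7 (-0.69 ± 0.10, adjusted p = 0.00022). JUP, which encodes plakoglobin, was higher in A7 (0.42 ± 0.09, adjusted p = 0.0113).

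Among 16 partners of claudins, 4 were higher and 2 lower in G10 vs control, and 1 lower in A7 vs control. The shares were 25% higher and 12.5% lower in G10, beside 9.92% and 7.90% of all clusters, and 6.25% lower in A7, beside 2.23%. Of those above the unexpressed level in some group, 41.7% were called in G10, beside 26.3% of all such clusters. In A7 it was 8.33%, beside 7.99%. Without G10 replicates 1 and 2, the calls of MAGI3 (adjusted p = 0.0978) and PATJ (adjusted p = 0.0795), higher in G10, were lost, and that of PATJ also without replicates 3 and 4 (adjusted p = 0.0864). TJP1, the scaffold ZO-1 that claudins bind, was lower in G10 (-0.52 ± 0.10, adjusted p = 0.00153), as was the junctional adhesion molecule JAM3 (-0.63 ± 0.08, adjusted p = 4.37e-05). MPDZ, a scaffold with many PDZ domains, was higher in G10 vs control (1.20 ± 0.11, adjusted p = 1.21e-06) and in G10 vs A7 (1.16 ± 0.12, adjusted p = 8.35e-06). CXADR, a tight junction adhesion protein, was higher in G10 (0.71 ± 0.20, adjusted p = 0.0217), but not without replicates 1 and 2 (0.24, adjusted p = 0.494). Its difference in A7 was 0.66 ± 0.20 (adjusted p = 0.0724). All PCDNA3 arrays of CXADR lay below all A375 arrays (means 7.42 and 8.05), a difference that was not called (adjusted p = 0.278). G10 replicates 3 and 4 (7.96 and 7.98) lay among the A375 arrays. Of 11 desmosomal genes none was called in either clone vs control at the adjusted limit. At an unadjusted p under 0.05, 1 passed in G10 and 0 in A7, beside 9380 and 5679 of all 33297 clusters. DSG2, a desmosomal cadherin, was lower in G10 vs A7 (-0.40 ± 0.13, adjusted p = 0.0431). That call was lost without G10 replicates 1 and 2 (-0.22, adjusted p = 0.375).

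Regulators of the cadherin switch were called in both clones. Of 15 measured, 2 were higher and 4 lower in G10 vs control, and 1 higher and 2 lower in A7 vs control. These are 13.3% and 26.7% in G10, beside 9.92% and 7.90% of all clusters, and 6.67% and 13.3% in A7, beside 3.46% and 2.23%. Of those above the unexpressed level in some group, 54.5% were called in G10, beside 26.3% of all such clusters. In A7 it was 27.3%, beside 7.99%. Without G10 replicates 3 and 4, the calls of SNAI2 (adjusted p = 0.209) and TWIST2 (adjusted p = 0.281), lower in G10, were lost. SNAI2 was also lower in A7 vs control, on every array (-0.59 ± 0.13, adjusted p = 0.00961). TWIST1 was lower in G10 (-1.10 ± 0.09, adjusted p = 7.63e-07), and its difference of -0.30 in A7 was not called (adjusted p = 0.0854). ZEB2, a repressor of CDH1, was higher in G10 (0.92 ± 0.12, adjusted p = 4.01e-05) and measured 0.06 ± 0.12 in A7. SNAI1, another such repressor, was lower in G10 (-0.67 ± 0.11, adjusted p = 0.000616) and in A7 (-0.57 ± 0.11, adjusted p = 0.00665). TCF4, a basic helix-loop-helix factor, was higher in G10 (1.59 ± 0.12, adjusted p = 1.7e-07) and in A7 (1.37 ± 0.12, adjusted p = 2.85e-06). CDH1 lay below the unexpressed level in all 4 groups beside these.

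Of 6 genes that cut or turn over cadherins, 1 was higher and 2 were lower in G10 vs control, and none was called in A7. At an unadjusted p under 0.05, 2 of the 6 passed in A7, beside 5679 of all 33297 clusters. The G10 shares were 16.7% and 33.3%, beside 9.92% and 7.90% of all clusters. All 6 lay above the unexpressed level in some group, and 50% were called in G10, beside 26.3% of all such clusters. ADAM10, which sheds the outer part of E- and N-cadherin, was lower in G10 vs control (-0.56 ± 0.11, adjusted p = 0.00168) and in G10 vs A7 (-0.91 ± 0.12, adjusted p = 0.000102). FURIN, which removes the cadherin propeptide, was lower in G10 (-0.55 ± 0.12, adjusted p = 0.00323), and NCSTN, a gamma-secretase subunit, was higher (0.43 ± 0.10, adjusted p = 0.00758). Without G10 replicates 1 and 2, neither FURIN (-0.32, adjusted p = 0.113) nor NCSTN (0.19, adjusted p = 0.229) was called.

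**Figure D5:**
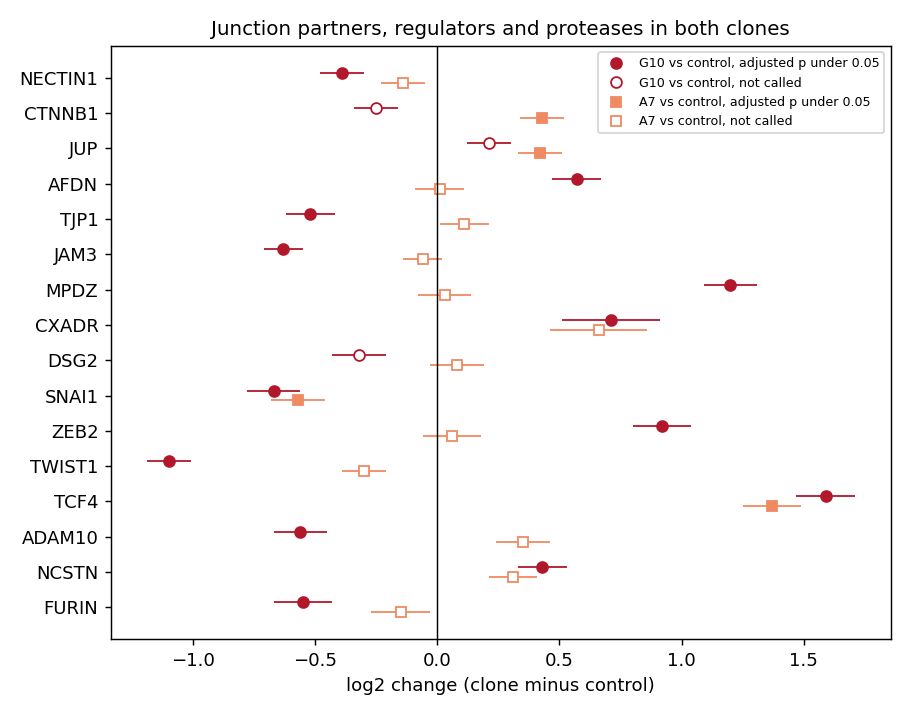
Log2 change from control (x axis, clone minus control; bars 1 SE) of most partner genes, regulators and proteases named in the text. G10 is shown as circles and A7 as squares, filled where the adjusted p was under 0.05. CTNNA1, NECTIN2, MAGI3, PATJ, SNAI2 and TWIST2 are not drawn, and of these SNAI2 was called lower in both clones. Of the genes drawn, SNAI1 and TCF4 are filled in both clones, and TWIST1, ZEB2 and MPDZ, among others, in G10 alone.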

How the data were processed

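RNA of 16 cultures (4 each of G10, A7, PCDNA3 and A375) was measured on arrays. The authors summarized probes with RMA and used limma (versions not given in the sources used here), and deposited log2 intensities of 33297 transcript clusters. Probe-level data were not used. Genes were named from clusters with 1 symbol in the platform annotation. The members, lists and limits were chosen with earlier results of these data known.

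Using R 4.3.3 and limma 3.58.1, lmFit with 1 mean per group on all arrays and eBayes (3.57 prior degrees of freedom) tested G10 and A7 vs control, G10 vs A7 and PCDNA3 vs A375, with Benjamini-Hochberg adjustment over all clusters and an adjusted p limit of 0.05. The procedure was tested on simulated data. Counts and figures used Python 3.11.15, pandas 2.3.3 and matplotlib 3.10.9. Where 1 side's mean lay below 5.18, a change is at least the brighter mean minus the dimmer arrays raised to that level; with both below, no size is given.

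Named in full were members called in a clone comparison, above 5.18 in some group mean, with a measured change of at least 0.5. CDH1, CDH2, CDH3, CDH19, CLDN1, CLDN11, CDH7 and CLDN10 were named in full whatever their values. Of these, CDH7 and CLDN10 were chosen because the authors list them among adhesion genes upregulated in A7 and in G10, respectively. That list comes from these same arrays, so it is not independent of their calls here. CDH13 was chosen too but has no cluster with 1 symbol. From each partner list, up to 4 called genes with the largest change were named. Further called partners were named after their values were seen. Alternatives were either control line alone, only the arrays compared, quantile normalization, median centring, limma-trend, robust eBayes, array weights, a replicate block, clusters above 5.18, a limit of 1 on the log2 change and 0.001 on the adjusted p, the mean over a symbol's clusters and leaving out each array. Leaving out G10 replicates 1 and 2, or 3 and 4, was chosen after seeing the data. Upstream sequences come from RefSeq (GRCh38.p14), without the bases after the start. The number of arrays limits the precision, and cultures of 1 clone measure the spread between these samples only.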

Additional observations from a re-analysis of the deposited data

Results flagged for a closer look

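In a test of 44 groups of 4 arrays for an array set apart from the other 3, which chance alone gives for about 1 group in 20, 2 were set apart. The lowest G10 array of CDH2 (10.19, against 10.57 to 10.59 on the other 3) had a gap of 0.941 of the group's range. The highest A7 array of CDH19 (8.23, against 7.83 to 7.86 on the other 3) had a gap of 0.937 of the range.

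The change in G10 differed from the change in A7, by the test of G10 vs A7, for 6 members. CDH2 was higher in G10 than in A7 by 0.42 (adjusted p = 0.0112), CDH19 by 0.92 (adjusted p = 0.000251) and CLDN4 by 0.44 (adjusted p = 0.00949). CLDN10 was higher with both means below the unexpressed level (adjusted p = 0.000255). CDH7 was lower by at least 0.25 (adjusted p = 9.29e-06) and CLDN34 by at least 0.11 (adjusted p = 0.0103).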

How the results depend on the processing

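No call reversed. With A375 cells alone as control, 1 member was lower in A7 vs control and 1 in G10 vs control. Requiring a log2 change of at least 1 and adjusted p below 0.001 left 1 lower in A7, 1 higher and 0 lower in G10 vs control, 1 higher and 1 lower in G10 vs A7, and 0 in PCDNA3 vs A375. Clusters above 5.18 alone gave 2 higher in G10 vs control, as CDH8 and CLDN10 are not among those clusters. Without G10 replicates 1 and 2, 2 were lower in G10 vs control and 3 higher in PCDNA3 vs A375. Without replicates 3 and 4, 1 was lower in G10 vs A7 and 3 higher in PCDNA3 vs A375. Only the arrays compared gave 3, and array weights 2, higher in PCDNA3 vs A375. The stricter limit and the left-out clusters remove calls by definition. The cause of the other changes in count was not tested.

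Leaving out each array in turn gave, for higher and lower, 3 to 4 and 2 to 4 in G10 vs control, 1 and 2 to 3 in A7 vs control, 4 to 5 and 2 in G10 vs A7, and 0 to 2 and 0 in PCDNA3 vs A375. Without G10 replicate 1, 2 were lower in G10 vs control. In PCDNA3 vs A375 none was higher without A375 replicate 2 or PCDNA3 replicate 4, and 2 were without G10 replicate 2, 3 or 4.

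The replicate numbers did not pair the arrays: deviations of 24 same-numbered pairs correlated at -0.161 to 0.23, 3 of them over 0.1, and 5 of 16 arrays correlated best with their own number. With a replicate block, 3 higher and 3 lower members were called in G10 vs control, 1 and 2 in A7 vs control, 4 and 2 in G10 vs A7, and 1 and 0 in PCDNA3 vs A375. Other scalings moved the median of all clusters by under 0.1. Members near 5.18 have little signal over background, so their changes are limits only.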
